A study of Arabidopsis thaliana with 8 samples.

Results

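The 2 RNA interference lines of this Arabidopsis thaliana seedling series, line 12 (RLI2 knockdown #12) and line 5 (RLI2 knockdown #5), were compared gene by gene with RNA sequencing. Both lines carry a construct against RLI2, which the expression table lists as ABCE2, and the comparison asks what differs between seedlings with the same target. Line 12 had 3 libraries and line 5 had 2, with 3 libraries of wild type (WT, Col-0) used as context, so that 5 of the 8 libraries of the series entered the tests. Of 32833 genes in the table, 18881 had at least 1 FPKM (fragments per length of gene and library size) in at least 2 of these 5 libraries and were tested. All seedlings were kept for 3 days at 4 °C on plates of reduced-strength Murashige and Skoog medium and grown for 7 days at 22 °C under days of 16 h light and nights of 8 h, per the labels' protocols. The promoter of the construct, its place of insertion and the number of independent transformants behind each line are not stated in the labels. Nor do the labels tie replicates to separate plates or cultures. The p-values therefore reflect only how far these libraries vary, and part of that variation may be technical.

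ABCE proteins are ATPases that split ribosomes into subunits after a round of translation. Several of the genes described below belong to stress pathways of plants. Abscisic acid is a hormone made from carotenoids when water is short; it acts by switching off clade A protein phosphatases, and its late targets encode protective proteins and enzymes of compatible solutes. Ethylene is a gaseous hormone whose receptors hold its pathway inactive until they bind it, and several parts of that pathway are themselves among its target genes. CBF factors (also DREB1) are cold-induced activators of the COR genes, and the plant clock times morning and evening genes through transcription factors that repress each other.

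The values implied 43410000 to 47840000 fragments per library in line 12 and 43830000 and 44580000 in line 5, with 18218 to 18565 genes at 1 FPKM or more in the 8 libraries. Ribosomal RNA genes took 0.161%, 2.34% and 7.60% of fragments in line 12, 0.468% and 2.18% in line 5 and 0.193% to 0.412% in WT. The 3 libraries above 2% (line 12 replicates 2 and 3, and line 5 replicate 2) were therefore left out in 1 alternative, which kept 1 library of each line beside WT. The libraries held the RNA of green seedlings: LHCB1.3, an antenna protein of photosystem II, had 11185, 10572 and 9731 FPKM in line 12 and 12765 and 12889 FPKM in line 5. BGLU23 (PYK10), a glucosidase of root endoplasmic reticulum bodies, had 987, 538 and 905 FPKM in line 12 and 644 and 966 FPKM in line 5. Libraries of the same line differed by a median of 0.116 to 0.128 over genes on the log2 scale, and libraries of different lines by 0.172 to 0.223. In a principal component analysis the first component (54.1% of the variance) had values of -28.4 to -13.6 in line 12 and of 32.3 and 34.6 in line 5.

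No difference in the target transcript was detected between the lines, and both stood under WT. ABCE2 (AT4G19210, chromosome 4, 10501123 to 10505217, plus strand) had 26.7, 26.4 and 23.3 FPKM in line 12, against 25 and 26.4 FPKM in line 5, while the WT libraries had 57.5, 57.8 and 58.6 FPKM. That was 44.0% of the WT mean in line 12 and 44.3% in line 5, and the ranges of both lines overlapped. The difference was -0.01 on log2(FPKM + 1), with an SE of 0.082 and a 95% interval from -0.22 to 0.19 (limma adjusted p = 0.934). An exact two-sided permutation test over the 10 possible assignments of the 5 libraries gave p = 0.9, and 3 against 2 libraries cannot go below 0.1 in such a test. The related ABCE1 was below the filter. The release, decay and recycling factors tested with ABCE2, 10 genes in all, had 0 calls by limma, against 13.2% of all genes. At an unadjusted p under 0.05 there were 2, against 5778 of 18881 genes in all. With so few genes, 0 calls does not show that the list was alike in the lines.

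In contrast to the target, 2501 of the 18881 genes (13.2%) differed between the lines at a limma adjusted p under 0.05. Of these, 1184 were higher in line 12 (6.27% of all genes tested) and 1317 were lower (6.98%). At least 2-fold differences were fewer, at 520 genes (2.75%), with 266 genes higher (1.41%) and 254 lower (1.35%), and the median size over the called genes was 0.65 on the log2 scale, against a median difference of -0.0084 over all genes. Without adjustment, 5778 genes had a p under 0.05. All 2501 called genes had no overlap between the lines, against 50.2% of all genes tested. Where a lack of overlap is given below for a called gene, it therefore adds nothing to the call. In bulk seedlings, fewer cells of a type and less RNA per cell cannot be told apart. The count moved with the libraries: it was 1505 without line 12 replicate 2, 895 without line 12 replicate 3, 413 without line 5 replicate 1, 338 without line 5 replicate 2, and 471 (216 higher, 255 lower) without the 3 libraries rich in ribosomal RNA. Rescaling the libraries without ribosomal RNA and organelle genes gave 1506 higher and 1073 lower calls. A limma fit that also held the replicate number as a block called 0 genes, with 3245 at an unadjusted p under 0.05. Line 12 replicate 3 has no line 5 partner, so that fit compares replicates 1 and 2 only, with fewer degrees of freedom. Its 0 calls cannot show that the lines were alike.

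**Figure D1:**
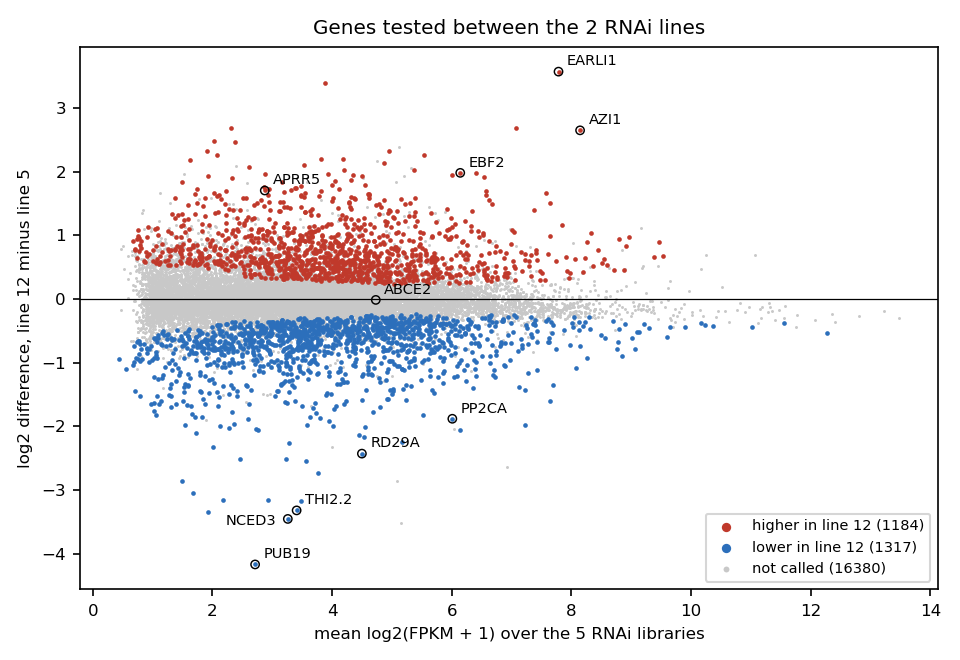
Log2 difference (line 12 minus line 5, vertical axis) against the mean log2(FPKM + 1) of the 5 RNAi libraries (horizontal axis) for 18881 genes. Red points are the 1184 genes called higher in line 12, blue points the 1317 called lower and grey points those not called; circled genes are named in the text, with ABCE2 close to 0.

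The lowest genes in line 12 stood several times under line 5 in every library. Differences marked log2 are line 12 minus line 5 on log2(FPKM + 1), with their SE. PUB19 (AT1G60190), a U-box ubiquitin ligase of drought responses, had 1.35, 0.647 and 1.26 FPKM in line 12, against 33.6 and 38.9 FPKM in line 5 (log2 -4.17 ± 0.18, limma adjusted p = 0.00182). WT held 2.74, 1.9 and 1.76 FPKM, so that the high values were those of line 5. NCED3 (AT3G14440), the enzyme that limits abscisic acid synthesis under drought, had 3.6, 1.82 and 2.82 FPKM in line 12, against 37.2 and 41.6 FPKM in line 5 (log2 -3.46 ± 0.21, limma adjusted p = 0.00304). Its WT libraries, at 3.01, 3.92 and 3.32 FPKM, overlapped line 12. THI2.2, a thionin of the antimicrobial peptide class, had 3.09, 2.72 and 3.94 FPKM in line 12, against 39 and 43.5 FPKM in line 5 (log2 -3.32 ± 0.14, limma adjusted p = 0.00181). Here WT, at 47.2, 42.3 and 62.3 FPKM, lay near line 5, and line 12 held the low values. The other 9 of the 12 lowest genes were SAG113 (HAI1), GOLS2, HSFC1, AT5G45630, AFP1, RD29A, AT5G03210, AT1G61340 (FBS1) and ERF061, with differences of -3.17 to -2.16. Each of the 12 was called in all 5 fits that left out 1 library, and 10 of them also without the libraries rich in ribosomal RNA, GOLS2 and RD29A being the exceptions.

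Among the highest genes in line 12, EARLI1 (AT4G12480, chromosome 4, 7406065 to 7406994, minus strand), a proline-rich lipid transfer protein, had 376, 829 and 668 FPKM in line 12, against 47.5 and 50.3 FPKM in line 5 (log2 3.57 ± 0.33, limma adjusted p = 0.00536). The line 12 libraries varied about 2-fold among themselves, yet all stood above both line 5 libraries and above WT, at 30.7, 35.5 and 30.9 FPKM. NAS3, a nicotianamine synthase of metal transport, had 62.8, 102 and 98.3 FPKM in line 12, against 17.9 and 16.3 FPKM in line 5 (log2 2.26 ± 0.22, limma adjusted p = 0.00649). RBCX1, an assembly chaperone of Rubisco, had 36.4, 34.5 and 26.9 FPKM in line 12, against 7.01 and 5.5 FPKM in line 5 (log2 2.21 ± 0.16, limma adjusted p = 0.00363), and the WT libraries, at 2.19, 1.01 and 1.92 FPKM, lay under both lines. Neither NAS3 nor RBCX1 overlapped between the lines. UPB1, a basic helix-loop-helix factor that controls the balance of oxygen radicals in root tips, had 26.2, 21 and 27.9 FPKM in line 12, against 3.79 and 5.66 FPKM in line 5 (log2 2.19 ± 0.18, limma adjusted p = 0.00422). MT2A, a metallothionein that binds copper, had 361, 179 and 354 FPKM in line 12, against 45 and 41.8 FPKM in line 5 (log2 2.68 ± 0.32, limma adjusted p = 0.00954), with 273, 35.2 and 33.2 FPKM in WT, where replicate 1 lay within the range of line 12. The other 7 were AT4G12490, AZI1, GSTU24, UGT73C5, AT1G43910, AT1G21520 and MIOX2, with differences of 2.02 to 3.39. Of the 12, only EARLI1, RBCX1, UPB1 and MIOX2 were called in all 5 fits that left out 1 library.

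**Figure D2:**
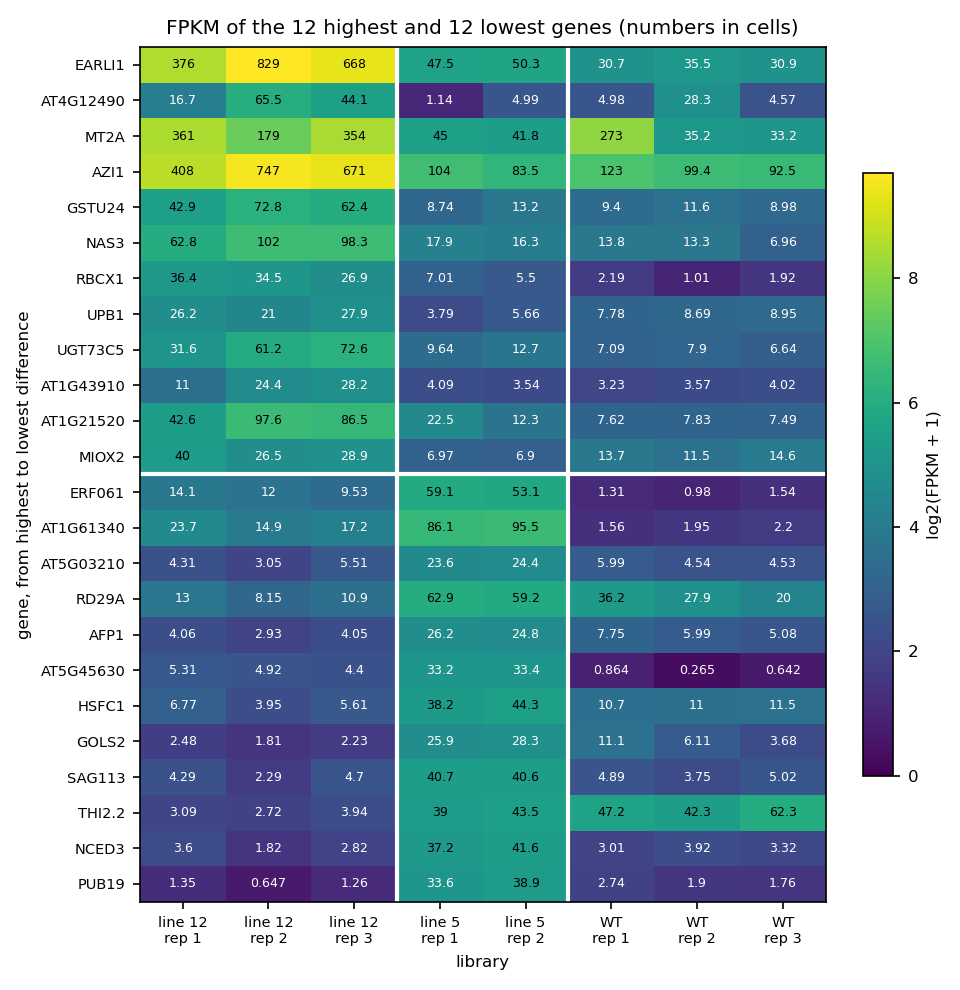
FPKM of the 12 highest and 12 lowest called genes (vertical axis) in the line 12, line 5 and WT libraries (horizontal axis), printed in each cell and coloured by log2(FPKM + 1). The upper 12 genes are brighter in line 12 than in line 5, and the lower 12 are brighter in line 5; THI2.2 is as bright in WT as in line 5, and MT2A in WT replicate 1 lies within the range of line 12.

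Genes of abscisic acid and dehydration were mostly lower in line 12. Of 26 members tested, 15 were lower and 2 higher (65.4% called, against 13.2% of all genes), with a list median of -0.93. In the synthesis step NCED3 was lower (values above), and among the hydroxylases that break the hormone down CYP707A3 had 6.26, 7.21 and 7.99 FPKM in line 12, against 30.4 and 24 FPKM in line 5 (log2 -1.78 ± 0.14, limma adjusted p = 0.00381). A second hydroxylase went the other way: CYP707A2 had 6.42, 6.71 and 9.07 FPKM in line 12, against 1.75 and 3.52 FPKM in line 5 (log2 1.24 ± 0.25, limma adjusted p = 0.0325). The clade A phosphatases, which hold the pathway off and are also among its target genes, were lower in 4 of 6 tested. SAG113 (HAI1) had 4.29, 2.29 and 4.7 FPKM in line 12, against 40.7 and 40.6 FPKM in line 5 (log2 -3.17 ± 0.24, limma adjusted p = 0.00378), with WT at 4.89, 3.75 and 5.02 FPKM. PP2CA had 40.2, 35 and 36.7 FPKM in line 12, against 140.2 and 139.6 FPKM in line 5 (log2 -1.88 ± 0.08, limma adjusted p = 0.00181). AIP1 (HAI2) and ABI2 were lower too, at log2 -1.67 and -0.47. ABI1 had 48, 41.6 and 62.3 FPKM in line 12, against 68.8 and 75.9 FPKM in line 5, without overlap of the lines but not called (limma adjusted p = 0.105). HAB1 had 18.9, 22.3 and 23.4 FPKM in line 12, against 21.5 and 30.1 FPKM in line 5, with overlap. In SAG113 and PP2CA the gap between the lines was several times the spread within them. AFP1, which binds and restrains the factor ABI5, had 4.06, 2.93 and 4.05 FPKM in line 12, against 26.2 and 24.8 FPKM in line 5 (log2 -2.51 ± 0.13, limma adjusted p = 0.00237). The genes PP2CA, AIP1, ABI2, ABI1, HAB1, CYP707A2 and CYP707A3, like other members given below for their role in a pathway, were chosen after their values were seen.

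Most effector genes named from the same list were lower too. GOLS2, galactinol synthase at the start of raffinose sugar synthesis, had 2.48, 1.81 and 2.23 FPKM in line 12, against 25.9 and 28.3 FPKM in line 5 (log2 -3.15 ± 0.11, limma adjusted p = 0.00146). LTI65 (RD29B), a hydrophilic dehydration protein, had 0.992, 0.584 and 0.996 FPKM in line 12, against 8.79 and 5.5 FPKM in line 5 (log2 -2.11 ± 0.21, limma adjusted p = 0.00679), so that line 12 stayed under 1 FPKM. P5CSA (P5CS1), which makes proline, had 137, 125 and 119 FPKM in line 12, against 366 and 410.1 FPKM in line 5 (log2 -1.60 ± 0.09, limma adjusted p = 0.00285). In line 12 P5CSA, PP2CA, NCED3 and SAG113 overlapped WT, but RD22, at 109, 126 and 145 FPKM in line 12, 288 and 261 FPKM in line 5 and 482, 423 and 349 FPKM in WT, was lowest in line 12 and highest in WT. CLPD (ERD1), a chloroplast chaperone, was the other member that was higher, with 67.9, 89.5 and 86.7 FPKM in line 12, against 50.9 and 47.9 FPKM in line 5 (log2 0.70 ± 0.13, limma adjusted p = 0.0273). Without the libraries rich in ribosomal RNA 5 of the 26 were called, all of them lower, and without line 5 replicate 2 the list had 10 calls. The higher calls of CYP707A2 and CLPD were both lost without line 12 replicate 2, without line 12 replicate 3 and without either line 5 library.

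Upstream sequences of 3 genes lower in line 12 are shown as examples that hold the response elements these pathways are known for. They were chosen after their matches were seen, and genes with larger differences, such as PUB19 and NCED3, are not shown. The 250 bases before each annotated gene start were read from the RefSeq copy of the TAIR10 nuclear genome, on the strand of the gene. The abscisic acid response element (ABRE) was searched as ACGTGNC and the dehydration element (DRE core), to which CBF factors bind, as CCGAC, on both strands, and matches are in capitals. RD29A (chr5:21240467-21240716, plus strand) had 3 DRE cores, at -140, -90 and -33 from the gene start. LTI65 (chr5:21236771-21237020, plus strand), its neighbour on the chromosome, had 1 DRE core at -136 and ABRE matches at -63, -38 and -10. PP2CA (chr3:3585851-3586100, minus strand) had ABRE matches at -231, -198 and -110 and a DRE core at -106 that overlaps the last of them.
RD29A: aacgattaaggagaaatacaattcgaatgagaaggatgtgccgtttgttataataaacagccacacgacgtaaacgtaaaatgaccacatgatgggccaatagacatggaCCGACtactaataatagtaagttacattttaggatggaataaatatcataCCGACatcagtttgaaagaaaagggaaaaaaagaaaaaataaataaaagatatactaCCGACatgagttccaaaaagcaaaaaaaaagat
LTI65: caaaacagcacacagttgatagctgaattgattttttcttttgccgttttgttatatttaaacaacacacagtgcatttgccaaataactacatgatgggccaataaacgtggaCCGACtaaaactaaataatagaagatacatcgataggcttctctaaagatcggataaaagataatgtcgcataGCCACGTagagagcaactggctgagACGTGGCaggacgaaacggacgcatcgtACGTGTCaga
PP2CA: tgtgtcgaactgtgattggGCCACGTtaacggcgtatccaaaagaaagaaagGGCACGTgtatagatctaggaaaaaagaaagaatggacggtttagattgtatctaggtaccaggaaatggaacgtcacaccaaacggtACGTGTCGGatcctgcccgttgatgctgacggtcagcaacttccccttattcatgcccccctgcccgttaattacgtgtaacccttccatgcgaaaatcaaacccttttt
An ABRE was held by 22.8% of genes lower by at least 2-fold, 15.3% of all lower genes, 8.11% of higher genes and 9.59% of all 18735 promoters read. For the DRE core the shares were 18.9%, 15.1%, 12.6% and 13.1% in the same order. Of the 26 abscisic acid genes, 11 held an ABRE, as did 8 of the 12 morning clock genes, and 3 of the 13 CBF and cold genes held a DRE core. The ABRE letters were added to the motifs searched after the data were seen, and a match is not a test of binding.

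CBF factors and their targets were lower in line 12 as well, with 8 of 13 members tested lower and 1 higher (69.2% called, against 13.2% of all genes, median -1.16). The 3 CBF genes lie next to each other on chromosome 4 and are similar enough in sequence that reads may be shared between them. DREB1B (CBF1) had 7.99, 5.49 and 4.76 FPKM in line 12, against 26.9 and 25.6 FPKM in line 5 (log2 -1.97 ± 0.19, limma adjusted p = 0.00649). DREB1C (CBF2) had 22.2, 21.6 and 16.7 FPKM in line 12, against 60.3 and 51 FPKM in line 5 (log2 -1.43 ± 0.15, limma adjusted p = 0.00683). In both, every line 12 library stood under both line 5 libraries. They were listed near 0 in WT, at 0, 0 and 0.0389 FPKM for DREB1B and 0.196, 0.373 and 0.888 FPKM for DREB1C, so that line 12 lay between WT and line 5. Among the targets RD29A had 13, 8.15 and 10.9 FPKM in line 12, against 62.9 and 59.2 FPKM in line 5 (log2 -2.43 ± 0.18, limma adjusted p = 0.00363). ERD10, a dehydrin, had 105, 78.2 and 74.3 FPKM in line 12, against 333 and 344 FPKM in line 5 (log2 -1.98 ± 0.16, limma adjusted p = 0.00389). KIN2, a small antifreeze-like protein, had 30.2, 18.9 and 33.1 FPKM in line 12, against 95.1 and 97.9 FPKM in line 5 (log2 -1.82 ± 0.23, limma adjusted p = 0.0111). In WT, RD29A had 36.2, 27.9 and 20 FPKM and KIN2 94.3, 69.8 and 48.2 FPKM, in both cases above every line 12 library, while ERD10 had 53.1, 48 and 34.8 FPKM, below every library of either line. RAV1, a repressor of growth that cold induces, was the 1 member that was higher, with 35.7, 41.2 and 42.9 FPKM in line 12, against 20.9 and 24.4 FPKM in line 5 (log2 0.79 ± 0.11, limma adjusted p = 0.0128). DREB1F (DDF1), a close relative of the CBF genes, had 5.64, 5.54 and 7.23 FPKM in line 12, against 7.67 and 7.56 FPKM in line 5 and was not called (limma adjusted p = 0.194). The list had 3 calls without line 5 replicate 1 and 3 without the libraries rich in ribosomal RNA.

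**Figure D3:**
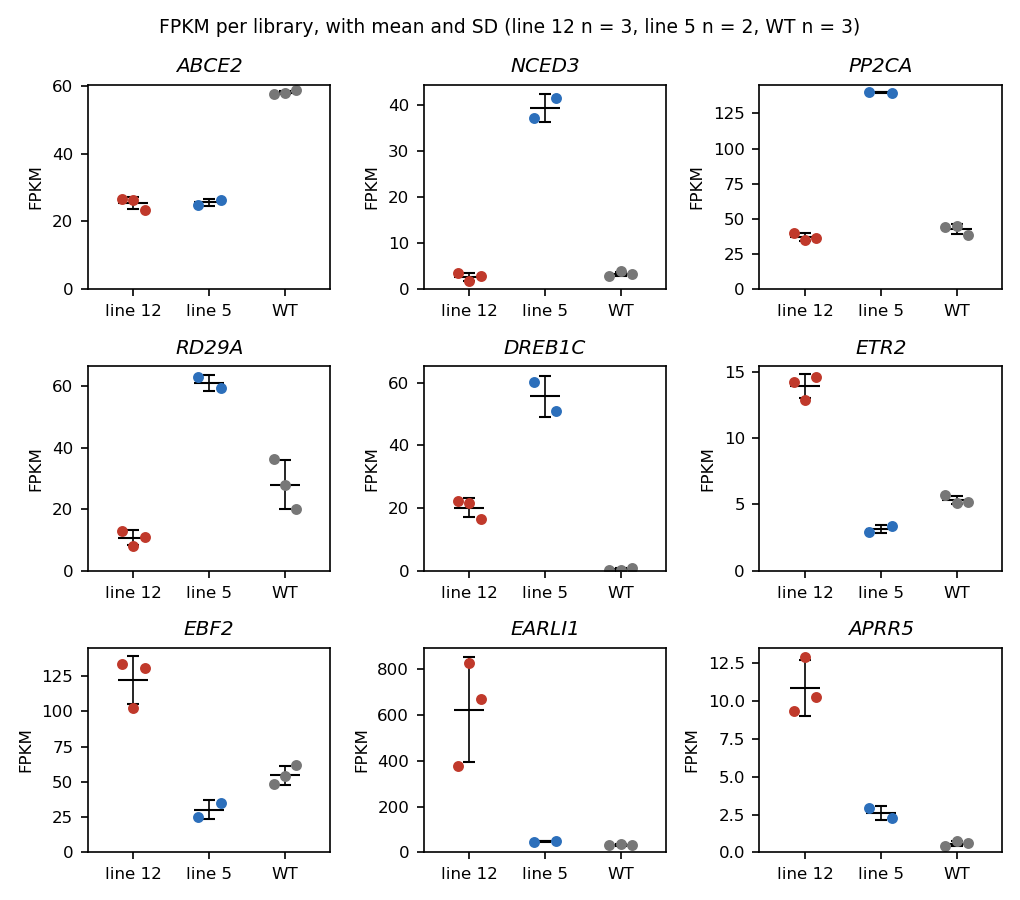
FPKM (vertical axes, from 0) of 9 genes in each library of line 12, line 5 and WT; points are libraries and bars the mean ± SD. ABCE2 overlaps between the lines, NCED3, PP2CA, RD29A and DREB1C are lower in line 12 than in line 5, and ETR2, EBF2, EARLI1 and APRR5 are higher.

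Rapid stress and touch genes are switched on within minutes of wounding, touch or other stimuli. In line 12, 18 of 33 members were lower and 3 higher (63.6% called, against 13.2% of all genes, median -0.68). FBS1 (AT1G61340), a stress-induced F-box protein, had 23.7, 14.9 and 17.2 FPKM in line 12, against 86.1 and 95.5 FPKM in line 5 (log2 -2.25 ± 0.19, limma adjusted p = 0.00463). ZAT11, a zinc finger factor, had 1.16, 0.98 and 0.734 FPKM in line 12, against 8.5 and 4.25 FPKM in line 5 (log2 -1.86 ± 0.27, limma adjusted p = 0.0143). ERF13, an ethylene response factor, had 0.563, 0.683 and 0.558 FPKM in line 12, against 3.53 and 3.55 FPKM in line 5 (log2 -1.50 ± 0.11, limma adjusted p = 0.00372). CML37, a calmodulin-like calcium sensor, had 3.51, 2.57 and 3.08 FPKM in line 12, against 9.96 and 8.75 FPKM in line 5 (log2 -1.36 ± 0.13, limma adjusted p = 0.00599). For FBS1, ZAT11, ERF13 and CML37 both line 5 libraries stood above every line 12 library. WT values were under line 5 for each of them, at 1.56, 1.95 and 2.2 FPKM for FBS1 and 0.407, 0.787 and 0.551 FPKM for CML37. The 3 higher members were ZAT7, ERF1A and XTH22. ZAT7, a zinc finger factor, had 10.3, 17.43 and 13.2 FPKM in line 12, against 7.16 and 5.85 FPKM in line 5 (log2 0.94 ± 0.21, limma adjusted p = 0.0439). ERF1A, an ethylene response factor, had 26.6, 29.8 and 35.7 FPKM in line 12, against 18 and 19.1 FPKM in line 5 (log2 0.69 ± 0.13, limma adjusted p = 0.0268). XTH22 (TCH4), a cell wall enzyme that touch induces, had 158, 162 and 135 FPKM in line 12, against 111 and 100.3 FPKM in line 5 (log2 0.52 ± 0.10, limma adjusted p = 0.0311). All line 12 libraries of these 3 genes were above line 5. CML38, a calcium sensor related to CML37, had 38.3, 41.8 and 31.6 FPKM in line 12, against 57.9 and 1.75 FPKM in line 5, and was not called (limma adjusted p = 0.431), with line 5 replicate 2 alone low among the RNAi libraries and WT at 0.52, 0.637 and 0.81 FPKM. The list had 6 calls without line 5 replicate 1, 9 without line 5 replicate 2 and 4 without the libraries rich in ribosomal RNA.

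Jasmonate is the wound hormone made from fatty acids of the chloroplast. Its list had 9 of 30 members lower and 0 higher (30% called, against 13.2% of all genes, median -0.31). In the synthesis pathway LOX3, a lipoxygenase, had 15.2, 8.36 and 10.4 FPKM in line 12, against 32.1 and 39.1 FPKM in line 5 (log2 -1.60 ± 0.24, limma adjusted p = 0.0155). OPR3, which reduces the cyclic precursor, had 12.8, 25.1 and 9.69 FPKM in line 12, against 47.4 and 58.7 FPKM in line 5 (log2 -1.78 ± 0.37, limma adjusted p = 0.037), with a wide spread within line 12. Its lowest and highest line 12 values were replicates 3 and 2, both under line 5. The regulator MYC2 had 26.6, 15.9 and 21.6 FPKM in line 12, against 42.6 and 52.8 FPKM in line 5 (log2 -1.14 ± 0.22, limma adjusted p = 0.0289). VSP2, a storage protein that jasmonate induces, had 1.5, 1.08 and 1.46 FPKM in line 12, against 4.84 and 6.05 FPKM in line 5 (log2 -1.46 ± 0.14, limma adjusted p = 0.0065). THI2.2, also counted in this list, is described above, with WT near line 5. Its response to jasmonate was not tested. Of the JAZ repressors, JAZ5 (TIFY11A) and JAZ12 (TIFY3B) were lower, at log2 -1.07 and -0.42. JAZ10 had 5.87, 3.28 and 4.43 FPKM in line 12, against 4.69 and 6.39 FPKM in line 5 and was not called. Jasmonate calls numbered 4 without line 12 replicate 3, 3 without line 5 replicate 1, 1 without line 5 replicate 2 and 3 without the libraries rich in ribosomal RNA.

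Ethylene genes moved the other way, with 13 of 23 members higher in line 12 and 1 lower. Here 60.9% were called, against 13.2% of all genes, with a list median of 0.90. Among the receptors, ETR2 had 14.2, 12.9 and 14.6 FPKM in line 12, against 2.94 and 3.38 FPKM in line 5 (log2 1.84 ± 0.09, limma adjusted p = 0.00229). ERS1 had 50, 43.5 and 47.2 FPKM in line 12, against 19.3 and 20.6 FPKM in line 5 (log2 1.19 ± 0.08, limma adjusted p = 0.00316). ERS2 was higher at log2 1.01. ETR1 had 16.1, 16.5 and 15.74 FPKM in line 12, against 15.3 and 15.65 FPKM in line 5 and was not called (limma adjusted p = 0.598). CTR1, the kinase that the receptors use to keep the pathway off, had 52.2, 50 and 52.5 FPKM in line 12, against 26.8 and 26.8 FPKM in line 5 (log2 0.92 ± 0.06, limma adjusted p = 0.00304), and line 5 lay close to WT at 25, 24.7 and 25.3 FPKM. EBF2, an F-box protein that removes the ethylene transcription factor EIN3, had 134, 102 and 130.3 FPKM in line 12, against 25.4 and 35.3 FPKM in line 5 (log2 1.98 ± 0.18, limma adjusted p = 0.00495). EBF1, its partner, was higher at log2 1.06. EIN3 itself had 87.2, 84.5 and 81.8 FPKM in line 12, against 91.8 and 84.6 FPKM in line 5, with overlapping ranges (limma adjusted p = 0.587), and EIN2, the membrane protein between CTR1 and EIN3, was higher at log2 0.39. For ETR2, EBF2 and ERS1 the WT libraries, at 5.71, 5.11 and 5.22 FPKM, 48.4, 54.1 and 61.8 FPKM and 27.7, 27 and 28.5 FPKM, lay between the lines.

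Small membrane proteins of organ size, which dampen ethylene signalling, were higher in line 12 as well. ORS1 (OSR1) had 7.83, 9.34 and 11.6 FPKM in line 12, against 0.378 and 0.913 FPKM in line 5 (log2 2.69 ± 0.21, limma adjusted p = 0.00378). ARL had 22.8, 22.4 and 32.2 FPKM in line 12, against 4.36 and 7.55 FPKM in line 5 (log2 1.97 ± 0.25, limma adjusted p = 0.0105). ARGOS had 6.09, 5.33 and 7.43 FPKM in line 12, against 2.29 and 2.59 FPKM in line 5 (log2 1.07 ± 0.14, limma adjusted p = 0.0118). For ORS1, ARL and ARGOS there was no overlap between the lines. In ethylene synthesis, the oxidase ACO4 had 391, 366 and 374 FPKM in line 12, against 265 and 263 FPKM in line 5 (log2 0.51 ± 0.06, limma adjusted p = 0.0104). The synthase ACS6, the 1 lower member, had 18.6, 22.6 and 21.8 FPKM in line 12, against 56.9 and 57.8 FPKM in line 5 (log2 -1.41 ± 0.09, limma adjusted p = 0.00316). ACS6 is also a gene that wounding and touch induce. The list had 7 calls without line 5 replicate 1, 9 without line 5 replicate 2 and 9 without the libraries rich in ribosomal RNA.

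**Figure D4:**
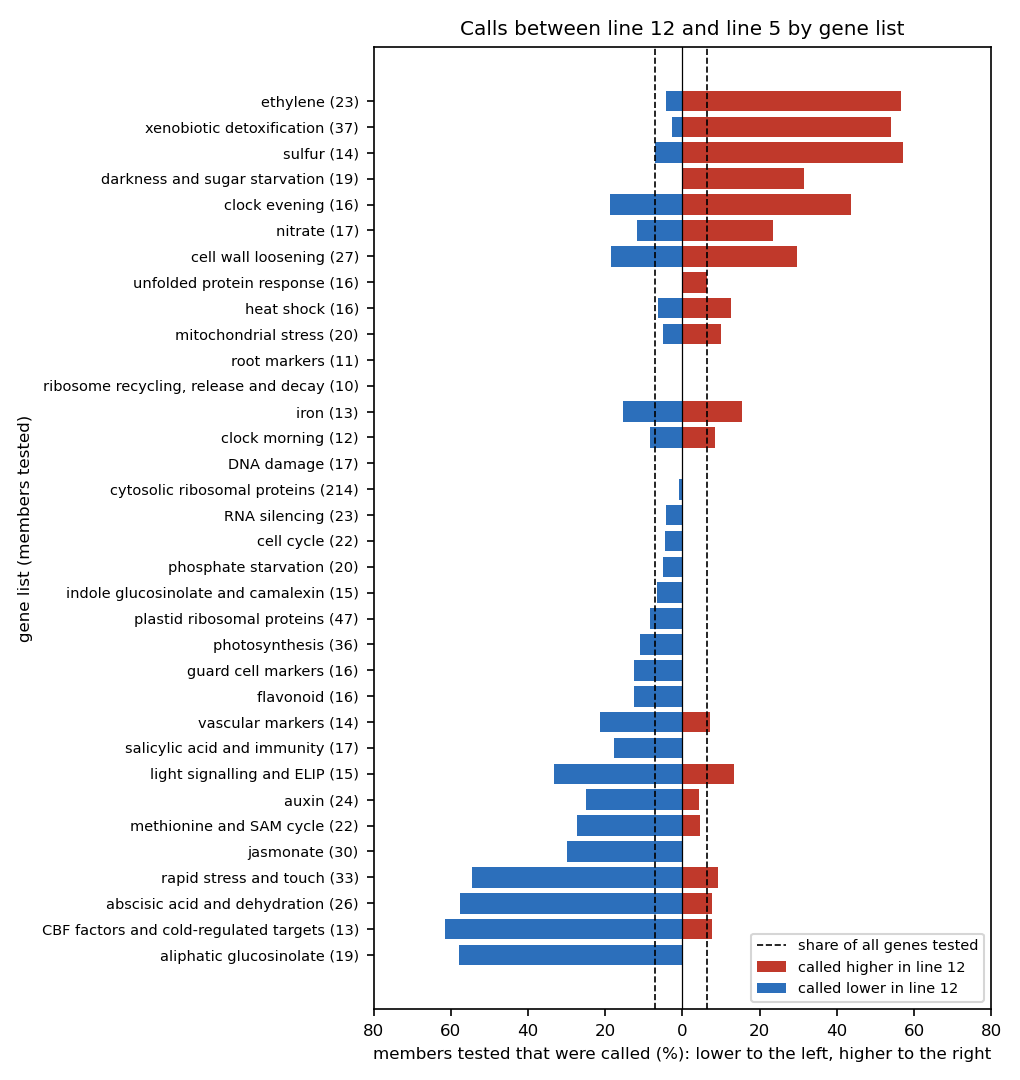
Share of tested members called lower (left, blue) or higher (right, red) in line 12 for each gene list with at least 10 members tested, given in brackets; dashed lines mark the shares over all genes tested (6.98% lower and 6.27% higher). Ethylene, xenobiotic and sulfur genes reach furthest to the right, and CBF, abscisic acid, aliphatic glucosinolate and rapid stress genes furthest to the left.

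Products of xenobiotic detoxification genes conjugate and export reactive or foreign compounds. Of these genes, 20 of 37 were higher in line 12 and 1 lower (56.8% called, against 13.2% of all genes, median 0.70). GSTU24, a glutathione transferase, had 42.9, 72.8 and 62.4 FPKM in line 12, against 8.74 and 13.2 FPKM in line 5 (log2 2.33 ± 0.26, limma adjusted p = 0.00846). UGT73C1, a glycosyltransferase, had 4.49, 6.22 and 8.26 FPKM in line 12, against 0.279 and 0.594 FPKM in line 5 (log2 2.33 ± 0.24, limma adjusted p = 0.00699). Its relative UGT73C5, not in the list but among the 12 highest genes, had 31.6, 61.2 and 72.6 FPKM in line 12, against 9.64 and 12.7 FPKM in line 5 (log2 2.14 ± 0.36, limma adjusted p = 0.0206). All 3 were without overlap between the lines. The exporters DTX1 and DTX3 are similar neighbours on chromosome 2 that may share reads. DTX1 had 17.7, 38.7 and 23 FPKM in line 12, against 9.35 and 4.53 FPKM in line 5 (log2 1.79 ± 0.39, limma adjusted p = 0.041), with WT at 1.68, 1.36 and 1.87 FPKM. DTX3 had 109, 179 and 176 FPKM in line 12, against 61.7 and 34 FPKM in line 5 (log2 1.70 ± 0.32, limma adjusted p = 0.0282), with WT at 2.94, 2.76 and 3.29 FPKM. Both were therefore highest in line 12 and lowest in WT. GSTU5, at 72, 63.4 and 69.3 FPKM in line 12, against 97.9 and 124 FPKM in line 5 (log2 -0.69 ± 0.12, limma adjusted p = 0.0226), was the 1 lower member. Line 12 replicate 1 had the lowest line 12 value for GSTU24, UGT73C1, UGT73C5, DTX1 and DTX3. The list had 12 calls without line 12 replicate 2, 8 without line 12 replicate 3, 3 without line 5 replicate 1, 6 without line 5 replicate 2 and 5 without the libraries rich in ribosomal RNA.

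Genes that mitochondrial dysfunction induces had 2 of 20 members higher and 1 lower (15.0% called, against 13.2% of all genes). The median difference was log2 0.56, 14 of the 20 differences were positive, and 15 of 20 had no overlap between the lines (50.2% of all genes). At an unadjusted p under 0.05 there were 15 of 20, against 5778 of 18881 genes in all. AOX1A, the alternative oxidase, had 98.9, 145 and 149 FPKM in line 12, against 85.6 and 56.4 FPKM in line 5, without overlap but not called (limma adjusted p = 0.0748). UGT74E2, which conjugates an auxin precursor, had 24.9, 38.7 and 40.4 FPKM in line 12, against 7.96 and 8.07 FPKM in line 5 (log2 1.95 ± 0.21, limma adjusted p = 0.00766). SOT12, a sulfotransferase, had 67.9, 106 and 89.4 FPKM in line 12, against 48.4 and 31.4 FPKM in line 5 (log2 1.13 ± 0.25, limma adjusted p = 0.0404). Line 12 replicate 1 held the lowest line 12 value of AOX1A, UGT74E2 and SOT12. PUMP5 (DIC1), a carrier of dicarboxylates, was lower, with 25.5, 28.7 and 21.3 FPKM in line 12, against 72.1 and 59.4 FPKM in line 5 (log2 -1.36 ± 0.15, limma adjusted p = 0.00759). The list had 6 calls without line 12 replicate 1, 0 without line 5 replicate 1, 1 without line 5 replicate 2 and 1 without the libraries rich in ribosomal RNA. The call on SOT12 was lost without line 12 replicate 2, line 12 replicate 3 or either line 5 library.

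The EARLI1 cluster, 4 tandem genes of lipid transfer proteins on chromosome 4 (7401087 to 7414955), was higher in line 12 in all 4 members. EARLI1 is given above. AZI1, which takes part in the spread of immunity by azelaic acid, had 408, 747 and 671 FPKM in line 12, against 104 and 83.5 FPKM in line 5 (log2 2.65 ± 0.27, limma adjusted p = 0.00697). AT4G12490 had 16.7, 65.5 and 44.1 FPKM in line 12, against 1.14 and 4.99 FPKM in line 5 (log2 3.39 ± 0.67, limma adjusted p = 0.032). AT4G12500 had 3.25, 4.36 and 5.95 FPKM in line 12, against 0.882 and 1.04 FPKM in line 5 (log2 1.47 ± 0.22, limma adjusted p = 0.0152). WT was near line 5 for AZI1, at 123, 99.4 and 92.5 FPKM, and for AT4G12500, at 0.98, 0.845 and 0.784 FPKM. For AT4G12490 WT had 4.98, 28.3 and 4.57 FPKM, and WT replicate 2 lay within the line 12 range. The 4 genes are alike in sequence, so that part of the reads of the abundant members may be counted in the others. The number called was 3 without line 12 replicate 2, 3 without line 12 replicate 3, 2 without line 5 replicate 1, 1 without line 5 replicate 2 and 2 without the libraries rich in ribosomal RNA.

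Clock genes were called mainly among the evening genes. Of 16 evening genes tested, 7 were higher in line 12 and 3 lower (62.5% called, against 13.2% of all genes, median 0.42). Of 12 morning genes 1 was higher and 1 lower (16.7% called, median -0.29). The difference between the lists was not tested. The sample details used here hold no hour of harvest, and the part of that hour in these differences was not tested. APRR5 (PRR5), a repressor of the morning genes, had 9.39, 12.9 and 10.3 FPKM in line 12, against 2.94 and 2.3 FPKM in line 5 (log2 1.71 ± 0.16, limma adjusted p = 0.00533), with WT at 0.41, 0.73 and 0.592 FPKM. GI, a protein that holds the clock's F-box proteins, had 18.19, 18.6 and 18.7 FPKM in line 12, against 7.13 and 6.47 FPKM in line 5 (log2 1.32 ± 0.07, limma adjusted p = 0.00237). APRR7 (PRR7), counted with the morning genes, was higher too, with 84, 78.8 and 67.9 FPKM in line 12, against 39.1 and 36.7 FPKM in line 5 (log2 1.0 ± 0.10, limma adjusted p = 0.00699). LHY, a morning factor, had 9.56, 9.47 and 12.6 FPKM in line 12, against 18.1 and 22.2 FPKM in line 5 (log2 -0.88 ± 0.15, limma adjusted p = 0.0231), and WT, at 59.1, 59.1 and 62.2 FPKM, lay above both lines. CCA1, its partner, had 36.5, 33.2 and 38.1 FPKM in line 12, against 44.9 and 61.8 FPKM in line 5, without overlap but not called (limma adjusted p = 0.067). The call on LHY was lost without line 12 replicate 1 or 2 and without either line 5 library, and that on APRR7 without either line 5 library, which left 0 calls in the morning list.

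ADO3 (FKF1), a blue light receptor that times flowering, was the 1 gene under 0.1 FPKM in every library of a line and at 1 FPKM or more in every library of the other. ADO3 had 1.12, 1.53 and 1.18 FPKM in line 12, against 0.0621 and 0.0842 FPKM in line 5 (log2 1.08 ± 0.15, limma adjusted p = 0.0128), and 0.109, 0.0471 and 0 FPKM in WT. CDF1, a flowering repressor that FKF1 and GI remove, was lower, with 10.8, 10.8 and 11.9 FPKM in line 12, against 27.8 and 31.6 FPKM in line 5 (log2 -1.33 ± 0.09, limma adjusted p = 0.00304). CDF3, of the same family, was lower at log2 -0.74. APRR1 (TOC1) had 19.4, 15.8 and 15.5 FPKM in line 12, against 13.8 and 14.7 FPKM in line 5 and was not called, nor was PCL1 (LUX), with 2.14, 2.43 and 2.17 FPKM in line 12, against 1.66 and 1.5 FPKM in line 5. With the limits moved to 0.05 and 2 FPKM, 0 genes were present in 1 line only. The evening list had 6 calls without line 5 replicate 1, 4 without line 5 replicate 2 and 2 without the libraries rich in ribosomal RNA, and ADO3 was not called without line 12 replicate 3 or either line 5 library.

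The evening element, searched as AAAATATCT on both strands, is the site to which the morning factors CCA1 and LHY bind. It was present upstream of 6.76% of the genes higher in line 12, 1.98% of those lower and 2.5% of all genes read. Of the genes higher by at least 2-fold, 26 of 266 (9.77%) held it, and 6 of the 16 evening genes did. APRR5 (chr5:8358547-8358796, minus strand) held it at -187 and ADO3 (chr1:25508389-25508638, plus strand) at -186, both shown as examples chosen after their matches were seen, with the element in capitals as it reads on the gene's strand.
APRR5: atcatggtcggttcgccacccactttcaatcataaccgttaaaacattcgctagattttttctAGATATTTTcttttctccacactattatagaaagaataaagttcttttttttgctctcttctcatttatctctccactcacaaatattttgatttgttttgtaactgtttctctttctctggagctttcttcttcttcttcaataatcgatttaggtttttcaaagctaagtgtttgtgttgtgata
ADO3: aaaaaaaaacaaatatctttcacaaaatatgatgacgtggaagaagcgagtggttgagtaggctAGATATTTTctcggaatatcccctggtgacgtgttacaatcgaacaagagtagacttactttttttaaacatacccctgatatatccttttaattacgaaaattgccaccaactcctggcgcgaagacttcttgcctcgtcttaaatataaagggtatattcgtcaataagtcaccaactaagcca
Shares of other motifs are given likewise. The G-box (CACGTG, which can overlap an ABRE) was found in 5.33% of promoters of higher genes, 13.0% of those of lower genes and 7.35% of all. For the W-box core (TTGAC) the shares were 45.1%, 50.5% and 45.0%. Site II (TGGGCC), known upstream of many ribosomal protein genes, was found for 8.45% of higher genes, 9.57% of lower genes and 17.0% of all. These shares were not tested.

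**Figure D5:**
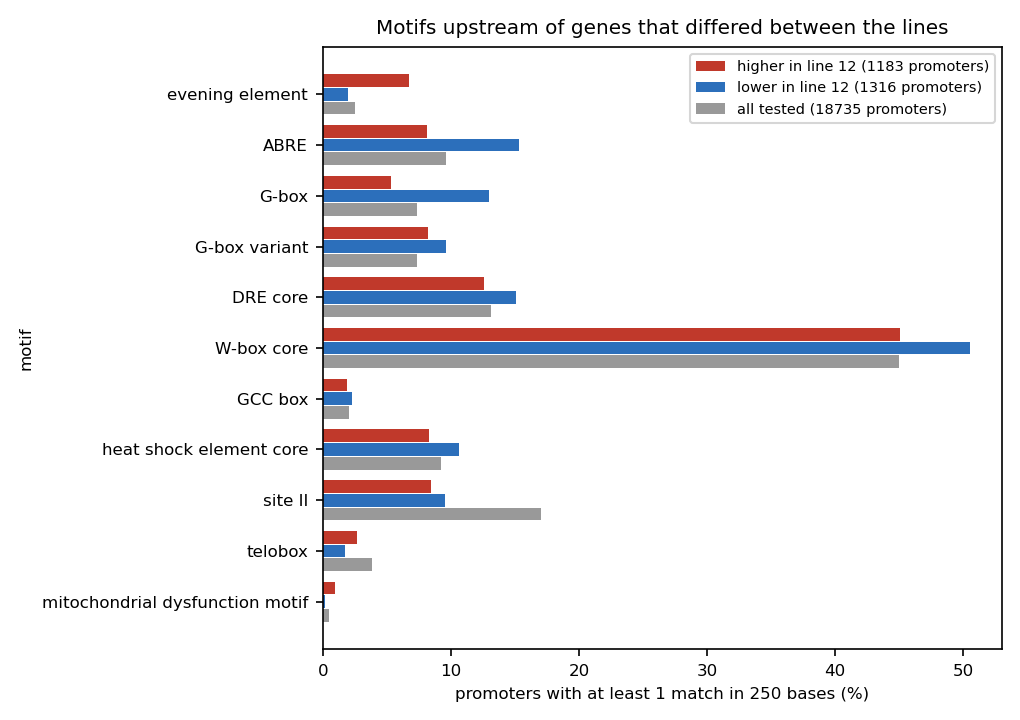
Share of promoters (250 bases before the gene start) with at least 1 match to each motif on either strand, for genes higher in line 12, genes lower in line 12 and all genes tested. The evening element is most frequent in the higher genes (6.76%), the ABRE (15.3%) and G-box (13.0%) in the lower genes, and site II in all genes (17.0%).

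Genes that low sulfur induces or that assimilate sulfate had 8 of 14 members higher in line 12 and 1 lower. That was 64.3% called, against 13.2% of all genes, with a list median of 0.62. SULTR1;2, a sulfate importer of roots, had 7.85, 7.02 and 9.93 FPKM in line 12, against 2.51 and 3.13 FPKM in line 5 (log2 1.27 ± 0.16, limma adjusted p = 0.0104). APR3, which reduces activated sulfate, had 44.1, 59.4 and 78.1 FPKM in line 12, against 20.7 and 29.3 FPKM in line 5 (log2 1.23 ± 0.26, limma adjusted p = 0.0382). In both genes every line 12 library stood above line 5. SHM7 and GGCT2;1, which breaks down glutathione, were higher at log2 0.86 and 0.83. In WT, SULTR1;2 had 6.72, 8.26 and 6.32 FPKM and APR3 had 58.3, 50.1 and 41.1 FPKM. For both genes WT overlapped line 12 and lay above line 5. The WT means of SHM7 and GGCT2;1 lay above both lines. APS1 (AT3G22890), the enzyme that activates sulfate, was lower, with 177, 185 and 181 FPKM in line 12, against 218 and 247 FPKM in line 5 (log2 -0.36 ± 0.07, limma adjusted p = 0.0367). LSU1, another low-sulfur marker, had 4.2, 4.99 and 0.363 FPKM in line 12, against 1.09 and 7.47 FPKM in line 5, with no order between the lines. The list had 3 calls without line 12 replicate 2, 3 without line 12 replicate 3, 0 without line 5 replicate 1, 1 without line 5 replicate 2 and 1 without the libraries rich in ribosomal RNA.

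Aliphatic glucosinolates are sulfur-rich defence compounds made from methionine. Of their pathway, 11 of 19 genes were lower in line 12 and 0 higher (57.9% called, against 13.2% of all genes, median -0.46). MYB29, a regulator of the pathway, had 2.72, 3.85 and 2.72 FPKM in line 12, against 9.9 and 9.17 FPKM in line 5 (log2 -1.37 ± 0.14, limma adjusted p = 0.00729). CYP79F1, which makes the oxime from chain-elongated methionine, had 3.37, 4.51 and 4.38 FPKM in line 12, against 7.83 and 8.81 FPKM in line 5 (log2 -0.88 ± 0.13, limma adjusted p = 0.0157), while its tandem copy CYP79F2 had 5.32, 5.7 and 5.75 FPKM in line 12, against 4.94 and 4.68 FPKM in line 5 and was not called (limma adjusted p = 0.198). FMOGS-OX1, which oxidises the side chain, and GSTF11, a glutathione transferase of the pathway, were lower at log2 -0.95 and -0.83. WT lay above both lines for each of these, at 28.8, 21.5 and 23.4 FPKM for MYB29 and 37, 21.4 and 22.7 FPKM for CYP79F1. Calls numbered 7 without line 12 replicate 1, 5 without line 12 replicate 3, 1 without line 5 replicate 1, 0 without line 5 replicate 2 and 1 without the libraries rich in ribosomal RNA. In the cycle of methionine and S-adenosylmethionine 6 of 22 genes were lower and 1 higher (31.8% called, median -0.17). MS2, a methionine synthase, had 30.2, 32.7 and 30.6 FPKM in line 12, against 49.3 and 55.5 FPKM in line 5 (log2 -0.73 ± 0.08, limma adjusted p = 0.0074). SAHH2 and MTHFR1, of homocysteine and folate turnover, were lower at log2 -0.57 each, and METK4, which makes S-adenosylmethionine, was higher at log2 0.60. The cycle had 2 calls without line 12 replicate 3, 3 without line 5 replicate 1, 0 without line 5 replicate 2 and 1 without the libraries rich in ribosomal RNA.

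Genes that darkness and sugar starvation induce had 6 of 19 members higher in line 12 and 0 lower. That was 31.6% called, against 13.2% of all genes, with a list median of 0.29. DIN10, a raffinose synthase homologue, had 339, 308 and 268 FPKM in line 12, against 114 and 98 FPKM in line 5 (log2 1.51 ± 0.12, limma adjusted p = 0.00406). BGAL4, a galactosidase, had 152, 167 and 136 FPKM in line 12, against 68.1 and 37.8 FPKM in line 5 (log2 1.56 ± 0.25, limma adjusted p = 0.0181). BCAT2, of branched-chain amino acid breakdown, had 58.8, 40 and 37.1 FPKM in line 12, against 16.6 and 15.8 FPKM in line 5 (log2 1.4 ± 0.20, limma adjusted p = 0.0139). None of the 3 overlapped between the lines. All WT libraries lay below both lines, at 53.8, 52.3 and 77.3 FPKM for DIN10, 9.44, 16 and 16.7 FPKM for BGAL4 and 1.07, 1.82 and 2.48 FPKM for BCAT2. ASN1, an asparagine synthetase that darkness induces, had 468, 349.9 and 337 FPKM in line 12, against 395 and 498 FPKM in line 5 and was not called (limma adjusted p = 0.457). The list had 2 calls without line 5 replicate 1, 3 without line 5 replicate 2 and 2 without the libraries rich in ribosomal RNA.

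Growth genes were split. Of 27 cell wall loosening genes 8 were higher and 5 lower (48.1% called, against 13.2% of all genes, median 0.00). XTH15, a xyloglucan enzyme, had 6.49, 5.34 and 5.64 FPKM in line 12, against 0.948 and 1.47 FPKM in line 5 (log2 1.63 ± 0.14, limma adjusted p = 0.00473). XTH9, of the same family, had 14.7, 19.2 and 14.7 FPKM in line 12, against 6.63 and 4.81 FPKM in line 5 (log2 1.36 ± 0.17, limma adjusted p = 0.0104). The expansin EXPA5 had 3.66, 3.57 and 2.48 FPKM in line 12, against 9.65 and 11 FPKM in line 5 (log2 -1.43 ± 0.16, limma adjusted p = 0.00786). The groups of XTH15, XTH9 and EXPA5 did not overlap. Of 24 auxin genes 6 were lower and 1 higher (29.2% called, median -0.34). IAA19, a repressor that auxin induces, had 6.42, 5.61 and 5.19 FPKM in line 12, against 12.4 and 12.2 FPKM in line 5 (log2 -0.98 ± 0.10, limma adjusted p = 0.00668). IAA14, of the same family, and the synthesis gene YUC9 were lower at log2 -1.01 and -1.09. Light signalling had 5 of 15 genes lower and 2 higher (46.7% called, median 0.01), with 8 differences positive and 7 negative. HFR1, a factor that shade induces, had 9.05, 12 and 7.75 FPKM in line 12, against 36.1 and 29.4 FPKM in line 5 (log2 -1.69 ± 0.19, limma adjusted p = 0.0079). HAT4 (ATHB2), the classic shade marker, had 27.8, 29.3 and 20.4 FPKM in line 12, against 62.6 and 49.4 FPKM in line 5 (log2 -1.09 ± 0.18, limma adjusted p = 0.0205). WT, at 11.9, 12.6 and 13.4 FPKM, overlapped line 12 for HFR1, but for HAT4 it lay below both lines, at 8.09, 8.28 and 9.16 FPKM. PIF3, a phytochrome interacting factor, was among the higher members (log2 0.73 ± 0.16, limma adjusted p = 0.0389). Its call was lost in each fit that left out 1 library. Cell wall calls numbered 4 without line 5 replicate 1, 3 without line 5 replicate 2 and 2 without the libraries rich in ribosomal RNA. Auxin calls numbered 4 without line 12 replicate 1, 4 without line 12 replicate 2, 2 without line 12 replicate 3 and 0 in the other 3 of these fits. Light calls numbered 2 without line 12 replicate 3, 0 without line 5 replicate 1, 1 without line 5 replicate 2 and 2 without the libraries rich in ribosomal RNA.

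Basic machinery had few calls, or a share of calls near the 13.2% of all genes. Of 214 cytosolic ribosomal proteins 2 were lower and 0 higher (0.935%; 3 higher and 1 lower when libraries were rescaled as above), of 47 plastid ones 4 were lower and 0 higher (8.51%), and of 36 photosynthesis genes 4 were lower and 0 higher (11.1%). The direction was nevertheless shared in the chloroplast lists, since 36 of 36 photosynthesis genes and 46 of 47 plastid ribosomal proteins had negative differences, with medians of -0.23 and -0.22 and ranges that did not overlap for 32 and 37 of them (50.2% of all genes had no overlap). Among the 214 cytosolic ribosomal proteins 160 differences were negative too, with a median of -0.10. The same rescaling moved the photosynthesis median to -0.16. LHCB2.4, of the antenna of photosystem II, had 447, 405 and 432 FPKM in line 12, against 737 and 745 FPKM in line 5 (log2 -0.79 ± 0.07, limma adjusted p = 0.00553). LHCB1.1 (AT1G29920), whose near-identical copies may share reads, had 4438, 4320.4 and 4089 FPKM in line 12, against 6117 and 6244 FPKM in line 5 (log2 -0.53 ± 0.10, limma adjusted p = 0.0267). The plastid ribosomal list had 1 call without line 12 replicate 3 and 0 without any other single library or without those rich in ribosomal RNA. Photosynthesis calls numbered 1 without line 12 replicate 2, 1 without line 12 replicate 3 and 0 without either line 5 library or without the libraries rich in ribosomal RNA.

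RNA silencing genes, on which the constructs depend, had 1 of 23 members called: HEN1, which methylates small RNAs, had 2.69, 2.81 and 2.8 FPKM in line 12, against 4.08 and 3.96 FPKM in line 5 (log2 -0.41 ± 0.09, limma adjusted p = 0.0372) and WT 4.41, 4.56 and 4.96 FPKM. HEN1 was not called in any fit that left out 1 library. AGO1, the main slicer of guided RNA silencing, had 49.6, 45.6 and 47.6 FPKM in line 12, against 51.5 and 53.8 FPKM in line 5 and was not called (limma adjusted p = 0.204). Markers of cell types were called by limma at 0 of 11 for root (1 at an unadjusted p under 0.05, and 3 called higher without line 12 replicate 2), 2 of 16 for guard cells (both lower), 1 of 6 for trichomes (lower) and 4 of 14 for vascular tissue (1 higher and 3 lower). The shares called were 12.5% for guard cells, 16.7% for trichomes and 28.6% for vascular tissue, against 13.2% of all genes. Their summed levels were 569.7 to 1053 FPKM in line 12 and 679 to 1024 in line 5 for root (1468 to 1865 in WT), and 272 to 297 in line 12 and 240.2 to 284 in line 5 for guard cells (285 to 313 in WT). They were 32.3 to 36.2 in line 12 and 39.1 to 44.0 in line 5 for trichomes (42.5 to 50.1 in WT), and 191 to 213 in line 12 and 222 to 224 in line 5 for vascular tissue (187 to 216 in WT). SUC2, the sucrose carrier of companion cells, had 37.4, 34 and 37.8 FPKM in line 12, against 51.9 and 55 FPKM in line 5 (log2 -0.54 ± 0.07, limma adjusted p = 0.0125). SWEET12, a sucrose exporter of the phloem, had 28.8, 23.2 and 25.5 FPKM in line 12, against 16.6 and 16.7 FPKM in line 5 (log2 0.60 ± 0.10, limma adjusted p = 0.0205). KAT1 (AT5G46240), a potassium channel of guard cells, had 5.04, 4.72 and 5.38 FPKM in line 12, against 7.75 and 11.3 FPKM in line 5 (log2 -0.78 ± 0.16, limma adjusted p = 0.0331). Its call was lost without line 12 replicate 1, 2 or 3. Of the 16 guard cell differences, 9 were positive and 7 negative. Without either line 5 library or the libraries rich in ribosomal RNA, 0 vascular markers were called. The part of these markers in the other differences was not tested.

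Against WT, the differences between the lines had no single form. Of the 1184 genes higher in line 12, the WT mean lay below both lines for 537 (45.4%), between them for 471 (39.8%) and above both for 176 (14.9%). Of the 1317 lower genes it lay below both lines for 469 (35.6%), between them for 389 (29.5%) and above both for 459 (34.9%). Line 12 and line 5 values enter both the call and this placing, so the shares are a description only.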

How the data were processed

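Total RNA of whole seedlings (1.5 µg per library) was made into TruSeq libraries, per the labels' protocols. The authors deposited 1 table with an FPKM value per gene and library. Per the submitters' processing notes, HISAT2 and StringTie (no versions) and TAIR10 were used. Counting step, annotation version and strand setting are not stated there, and reads of overlapping or antisense genes cannot be kept apart. FPKM was inferred from the values, as no header names the unit. Multiplied by gene length, 83.27% to 84.57% of low values were whole multiples of 1 unit per library (tolerance 0.01), which gave the fragments per library. No count test was run. The depth limits the precision of low genes. Of the gene IDs, 32548 were in the RefSeq TAIR10.1 annotation, 32520 with identical ends, and promoters of 18735 of the 18881 tested genes were read from it.

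A gene entered the test with 1 FPKM or more in 2 or more of the 5 line 12 and line 5 libraries. Values as log2(FPKM + 1) were fitted with limma 3.58.1 under R 4.3.3, using a variance trend on level (residual degrees of freedom 3, prior 2.611), two-sided. P-values were adjusted by Benjamini-Hochberg, with a threshold of 0.05. A fold change on this scale understates that of low genes. Python 3.11.15, pandas 2.3.3, numpy 2.4.6 and matplotlib 3.10.9 were used for the rest, and the fit was tested on simulated data. The genes named were drawn from ABCE2, the 12 highest and 12 lowest called genes above the median level whose libraries did not overlap, up to 4 called members of each gene list by size of difference (or its 2 most abundant, if it had 0 or 1 call) and genes present in 1 line only; not every gene of this rule is described, and further members were added after their values were seen. The comparison, its lists and the rule were chosen with earlier results of these data known. Alternatives changed the filter, the pseudocount, the scaling, the variance model, the libraries and a replicate block. 1 result is not reported here.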

Additional observations from a re-analysis of the deposited data

How the results depend on the processing

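All 2501 called genes that could be tested kept their direction in every alternative, and no shared call had the opposite direction, but the number of calls moved with the libraries. Leaving out 1 library gave 338 to 2025 calls, 142 to 1018 higher and 196 to 1007 lower, with fewer libraries in each fit. Without the 3 libraries above 2% ribosomal RNA there were 471 calls (216 higher, 255 lower), of which 362 were shared; this fit holds 1 library of each line, assumed to vary like WT. With all 8 libraries in the fit 1780 genes were higher. Asking for at least 2-fold left 520 (266 higher, 254 lower). No filter gave 1919 calls, a filter at 5 FPKM 2309, a pseudocount of 0.1 gave 2478, median centring 2484, rescaling 2579 and no intensity trend 2211. For the pairing of replicate numbers, the deviations of same-numbered libraries correlated at 0.023 (replicates 1) and -0.248 (replicates 2). With 2 libraries in line 5 their deviations mirror each other, so these values cannot show whether libraries of the same number were prepared together. Ribosomal RNA genes took 0.16% and 0.47% of fragments in line 12 and line 5 replicates 1, and 2.3% and 2.2% in replicates 2. A shared preparation was not tested. With a replicate block limma called 0 genes, 0 higher and 0 lower, with 3245 at an unadjusted p under 0.05. That fit compares replicates 1 and 2 only, with fewer degrees of freedom. The difference of ABCE2, -0.014, changed sign to 0.046 after rescaling, 0.046 with the block, 0.093 without the libraries rich in ribosomal RNA, 0.046 without line 12 replicate 3 and 0.024 without line 5 replicate 2 (-0.052 to 0.046 over the fits without 1 library), with limma adjusted p of 0.609 to 0.929 in these fits. Under the stricter limits 0 genes were present in line 12 only. Of the 115 called genes named by the rule, 27 were called in all 5 fits that left out 1 library, 18 of them also without the libraries rich in ribosomal RNA. Of 4 equal groups by level, 8.28% of genes were called in the lowest and 18.3% in the highest. The parts of depth and of the pseudocount in this were not tested.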

Other observations

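Nitrogen and senescence genes held further differences between the lines. GLN1-1, a cytosolic glutamine synthetase, had 79.1, 139.9 and 117 FPKM in line 12, against 29.8 and 25.6 FPKM in line 5 (log2 1.94 ± 0.24, limma adjusted p = 0.0104), with line 12 alone above WT at 37, 38.9 and 31.1 FPKM. HRS1, a repressor of phosphate responses that nitrate induces, had 17.9, 16.3 and 19.4 FPKM in line 12, against 8.75 and 9.37 FPKM in line 5 (log2 0.91 ± 0.09, limma adjusted p = 0.00697). NIA1, a nitrate reductase, had 73.9, 97.1 and 78.3 FPKM in line 12, against 142 and 131 FPKM in line 5 (log2 -0.72 ± 0.13, limma adjusted p = 0.0245). In the nitrate list 4 of 17 genes were higher and 2 lower (35.3% called, against 13.2% of all genes). Senescence factors split: NAC92 (ORE1) had 32.2, 30.5 and 53.2 FPKM in line 12, against 8.72 and 11.53 FPKM in line 5 (log2 1.80 ± 0.26, limma adjusted p = 0.0149), with WT at 29.5, 31.5 and 30.2 FPKM, and NAC029 (NAP) had 18.4, 14.6 and 23.9 FPKM in line 12, against 42 and 48.6 FPKM in line 5 (log2 -1.23 ± 0.20, limma adjusted p = 0.0197), with WT at 29, 29.5 and 26.8 FPKM between the lines. Both factors drive leaf senescence, and 2 of 7 senescence genes were higher and 1 lower (42.9% called). Without either line 5 library the nitrate and senescence lists had 0 calls.

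Immunity, iron and secondary metabolism differed in few genes. CBP60G, an activator of salicylic acid synthesis, had 8.96, 10.2 and 7.76 FPKM in line 12, against 23.4 and 19.1 FPKM in line 5 (log2 -1.16 ± 0.14, limma adjusted p = 0.00943). EDS1, a hub of immune signalling, had 11.46, 12.8 and 12 FPKM in line 12, against 19.1 and 17.41 FPKM in line 5 (log2 -0.55 ± 0.08, limma adjusted p = 0.0146); 3 of 17 genes of that list were lower and 0 higher (limma called 13.2% of all genes). The iron store FER1 had 498, 581 and 591 FPKM in line 12, against 758 and 766 FPKM in line 5 (log2 -0.46 ± 0.10, limma adjusted p = 0.0383), and of 13 iron genes 2 were higher, NAS3 among them, and 2 lower. F3H, of flavonoid synthesis, had 7.6, 6.63 and 7.5 FPKM in line 12, against 10.5 and 12.6 FPKM in line 5 (log2 -0.60 ± 0.11, limma adjusted p = 0.024), both lines far under WT at 71.4, 64.3 and 55 FPKM; 2 of 16 flavonoid genes were lower (12.5% called). FER1 and F3H were called in 1, EDS1 in 2 and CBP60G in 4 of the 5 fits that left out 1 library, and none of the 4 was called without the libraries rich in ribosomal RNA. MYB34, a regulator of indole glucosinolates, had 15.2, 9.41 and 13.5 FPKM in line 12, against 28.6 and 30.2 FPKM in line 5 (log2 -1.17 ± 0.19, limma adjusted p = 0.0198) and was the 1 call among 15 genes. Heat shock had 2 of 16 genes higher and 1 lower (18.8% called), the unfolded protein response 1 of 16 higher, phosphate starvation 1 of 20 lower and the cell cycle 1 of 22 lower (CYCD3-1, 5.24, 5.5 and 5.19 FPKM in line 12, against 8.04 and 8.18 FPKM in line 5). DNA damage (17 genes), triterpene clusters (5) and the 1 seed marker tested had 0 calls by limma, with 7, 1 and 1 at an unadjusted p under 0.05.

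Called genes lay on all 5 nuclear chromosomes, at 12.5% to 14.8% of the genes tested on each. Runs of 4 neighbouring tested genes called in the same direction were found at 4 places. On chromosome 3 (4912324 to 4927607) the higher genes CYP72A7, CYP72A8, CYP72A11 and CYP72A13 are cytochromes of 1 family and may share reads. On chromosome 5 (21226721 to 21246774) LTI65 and RD29A lie in a run of lower genes with AT5G52280 and CYP96A4. The third place is the EARLI1 cluster, and the last, on chromosome 4 (8864615 to 8879327), holds PPDK, AT4G15540, AT4G15545 and UGT75D1. UGT75D1, a glycosyltransferase, had 31.4, 30.7 and 56.1 FPKM in line 12, against 6.93 and 12 FPKM in line 5 (log2 1.94 ± 0.33, limma adjusted p = 0.022). Of the genes of the chloroplast (101) and mitochondrial genomes (33), 0 were called by limma, with 0 and 1 at an unadjusted p under 0.05. Their median differences were log2 0.14 and 0.34. Outside ribosomal RNA, these genomes took 0.025%, 0.124% and 0.28% of fragments in line 12 and 0.044% and 0.129% in line 5. With such a spread within each line, 0 calls does not show equal levels.

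Some differences of at least 2-fold were not called: 123 genes, of which 83 had no overlap between the lines (50.2% of all genes had none). These genes were picked for a large difference, which itself makes overlap less likely. AT1G33590 had 3.63, 6.22 and 70.3 FPKM in line 12, against 166 and 138 FPKM in line 5 (log2 -3.51, limma adjusted p = 0.109), with line 12 replicate 3 far above the other line 12 libraries. In 11 genes 1 library stood at least 10-fold under each of the 7 others while those held at least 10 FPKM, and 0 of these were called. RPS16C, a ribosomal protein, had 325, 1.1 and 285 FPKM in line 12, against 363 and 361 FPKM in line 5, with line 12 replicate 2 alone low. MBS2 had 67.8, 70.2 and 61.4 FPKM in line 12, against 70.2 and 1.3 FPKM in line 5, with line 5 replicate 2 alone low, and SAT3 had 40.3, 47.6 and 58.7 FPKM in line 12, against 1.63 and 44.4 FPKM in line 5, with line 5 replicate 1 alone low. These genes were chosen after their values were seen, and the cause of the low values was not tested.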
